A study of Mus musculus with 11 samples.

Results

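The ligands examined here sit on tumor cells or antigen-presenting cells and bind receptors that restrain or help T cells. They were taken as a named set of 9 genes, *Cd274*, *Pdcd1lg2*, *Cd80*, *Cd86*, *Cd276*, *Vtcn1*, *Lgals9*, *Pvr* and *Igsf11*, and 8 of the 9 were found by gene symbol among the 26283 genes of the count table. RNA of *Pdcd1lg2*, which encodes PD-L2, was not analysed here. A T cell that meets its antigen receives further signals through such ligands. Some of the receptors, among them PD-1, CTLA-4, TIM-3 and TIGIT, dampen the response, whereas CD28 and CD226 strengthen it. PD-L1, the product of *Cd274*, is known to be induced by interferons on tumor cells and on myeloid cells.

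RNA was sequenced from 11 flash-frozen mammary tumors of 18-week-old female C57BL/6 mice. Both genotypes have the transgenes MMTV-PyMT, the source of the tumors, and MMTV-Cre. The 6 KO tumors came from *Pcbp1*(fl/fl) animals and the 5 WT tumors from *Pcbp1*(wt/wt) animals. The deletion is described by the authors as one of the mammary epithelium, and *Pcbp1* in the other cells of a tumor was not measured here. PCBP1 binds poly-cytosine nucleic acids, and the study asked how its loss changes gene expression in these tumors. The sample titles give a genotype and a replicate number. They name no batch and do not say that each tumor came from a separate animal. The p-values given here thus measure the spread between these samples.

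Levels are given as CPM, the estimated count of a gene per 1e6 counts of its tumor, as the authors deposited them. The tumors held between 10543189 and 14092192 counts, with a median of 13135800 in the KO and 10975700 in the WT libraries. In these libraries 3 counts, the most that a count of 0 allows, correspond to between 0.213 and 0.285 CPM, a limit that covers counting error only. Fold changes are KO against WT on the log2 scale, from edgeR's quasi-likelihood test on the counts, with p-values adjusted by the Benjamini-Hochberg method over all 19232 genes tested.

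*Pcbp1* itself was checked first. Its level ranged from 15.4 to 33.6 CPM in KO tumors, with a median of 20.9, and it was 268, 271, 225, 220 and 259 CPM in WT replicates 1 to 5. Every KO tumor lay far below every WT tumor, with a log2 fold change of -3.43 (standard error, SE, 0.19; edgeR adjusted p = 4.72e-06). The labelled tissue was checked against epithelial markers, and the 8 luminal genes summed to between 1239 and 2366 CPM in each tumor. *Cdh1*, which encodes E-cadherin, was the most abundant of them at a mean of 321 CPM. WT replicate 5 was the lowest WT tumor, and lay within the KO range, for several genes described below, among them *Cd274*, *Lgals9*, *Stat2* and *Irf9*, and the fold changes of these genes are given with and without it.

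Of the 8 ligands, 6 had a lower and 2 a higher fitted level in KO tumors, and their median log2 fold change was -0.43, beside -0.00012 over all genes tested. *Cd274* alone passed an adjusted p under 0.05, so 1 of 8 ligands was called lower, where 1.66% of all genes tested were called lower. No ligand was called higher by edgeR, where 0.608% of all genes were. By DESeq2 and limma-voom, which called 486 and 968 genes higher, no ligand was higher either. None was higher at an unadjusted p under 0.05 either, where 8.19% of all genes were, so that 0 of 8 ligands were higher by any of these. At an unadjusted p under 0.05, 4 of 8 ligands were lower (*Cd274*, *Lgals9*, *Vtcn1* and *Pvr*), against 10.5% of all genes. The study's own criteria, an unadjusted p under 0.001 with a fold change over 2, were met by 1 of 8 ligands and by 0.572% of all genes in that direction. By these criteria 0 ligands were lower in 12 of 20 alternatives. With all 11 tumors, 0 of 8 ligands had every KO tumor below every WT tumor, which held for 2.02% of the genes tested.

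**Figure D1:**
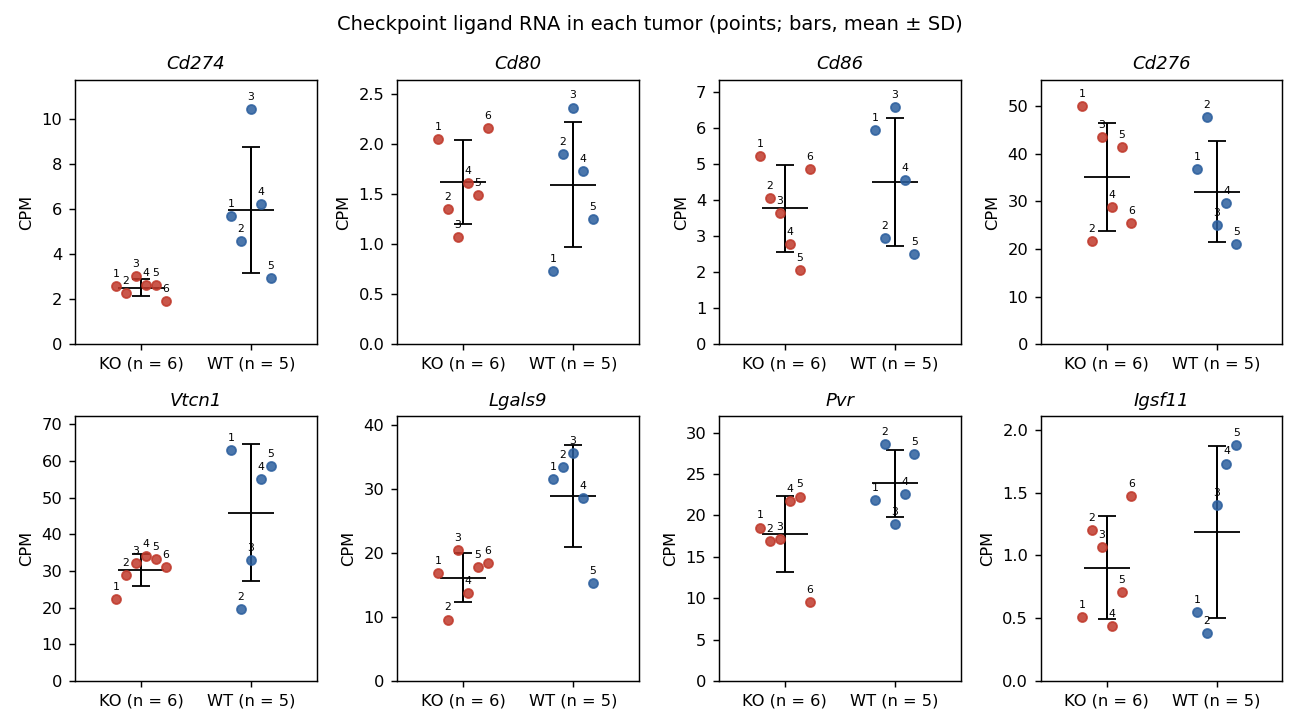
CPM of each ligand in each tumor, with KO tumors in red and WT tumors in blue, replicate numbers beside the points, and black bars for the mean and SD (n = 6 KO and 5 WT). For *Cd274* and *Lgals9*, 4 of the 5 WT tumors lie above all KO tumors, and WT replicate 5 lies among them.

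*Cd274* (ENSMUSG00000016496.7, plus strand of chromosome 19, bases 29367455 to 29388095 in GRCm38) encodes PD-L1, the ligand of PD-1. Its level ranged from 1.93 to 3.02 CPM in the KO tumors, with a median of 2.59, and was 5.66, 4.55, 10.4, 6.20 and 2.95 CPM in WT replicates 1 to 5. The KO tumors lay close together, 5 of 6 of them below the lowest WT tumor, and the groups met only where WT replicate 5 lay just under KO replicate 3. WT replicate 3 was the highest tumor. These levels rest on between 25 and 119 counts per tumor. The means were 2.50 ± 0.373 CPM (SD, n = 6) in KO and 5.96 ± 2.79 CPM (SD, n = 5) in WT tumors. In edgeR's fit the gene was 2.40-fold lower in KO tumors, with a log2 fold change of -1.26 (SE 0.28, 95% interval -1.87 to -0.65, adjusted p = 0.0399). In bulk tumor RNA, fewer cells that carry a ligand and less of its RNA per cell cannot be told apart.

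The call for *Cd274* was close to the threshold. Leaving out any 1 of KO replicates 1 to 6 or of WT replicates 1, 3 and 4 gave an adjusted p between 0.0595 and 0.0902 in edgeR, so that the call was lost in 9 of the 11 fits with 1 tumor left out. It was kept without WT replicate 2 (edgeR adjusted p = 0.0383) and without WT replicate 5 (0.0151). The log2 fold change was -0.91 without WT replicate 3, the highest tumor, and -1.42 without WT replicate 5. Over the 20 alternatives tried, the log2 fold change ran from -1.42 to -0.91 and the adjusted p from 0.00240 to 0.0932, with the call made in 8 of them. DESeq2 and limma-voom with sample quality weights were among those 8, with adjusted p = 0.00240 and 0.0158. On simulated counts DESeq2 called more unchanged genes than edgeR and limma-voom did, while on these tumors limma-voom called more genes (1190 lower and 968 higher) than DESeq2 (730 and 486).

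*Cd80* and *Cd86* encode the paired ligands that antigen-presenting cells show to CD28 and CTLA-4. *Cd80* (ENSMUSG00000075122.5, plus strand of chromosome 16, 38455561 to 38496335) was scarce, with between 8 and 28 counts per tumor. It ranged from 1.07 to 2.16 CPM in KO tumors with a median of 1.55, and was 0.731, 1.90, 2.37, 1.73 and 1.25 CPM in WT replicates 1 to 5. The groups overlapped throughout, and both the lowest and the highest tumor were WT. The log2 fold change was 0.010 (95% interval -0.66 to 0.68, edgeR adjusted p = 0.992), and its sign turned in 6 of 20 alternatives.

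*Cd86* (ENSMUSG00000022901.13) lies on the minus strand of chromosome 16 from 36603869 to 36666081. Its level in KO tumors ran from 2.06 to 5.21 CPM with a median of 3.85, and the WT replicates 1 to 5 held 5.94, 2.94, 6.57, 4.56 and 2.50 CPM. High and low tumors occurred in both genotypes. Its log2 fold change of -0.26 had a 95% interval from -0.91 to 0.38 (edgeR adjusted p = 0.671), an interval that holds a change of either sign.

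*Cd276* and *Vtcn1* encode B7-H3 and B7-H4, relatives of PD-L1 that are found on many epithelial tumors and can inhibit T cells. *Cd276* (ENSMUSG00000035914.11, minus strand of chromosome 9, 58524298 to 58555437) ranged from 21.6 to 49.9 CPM in KO tumors with a median of 35.1, and was 36.7, 47.8, 24.9, 29.6 and 21.0 CPM in WT replicates 1 to 5. Both genotypes covered nearly the same range. The log2 fold change was 0.14 (95% interval -0.38 to 0.67, edgeR adjusted p = 0.786). Its estimated counts were not whole numbers, and an unclassified gene on the opposite strand, RP24-78F21.3, overlaps its start, so that reads of both may have been divided between them. The sources used here do not say whether counting used the strand.

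*Vtcn1* (ENSMUSG00000051076.8, plus strand of chromosome 3, 100825459 to 100896922) ranged from 22.3 to 34.1 CPM in the KO tumors with a median of 31.6, and was 62.9, 19.5, 32.9, 55.1 and 58.7 CPM in WT replicates 1 to 5. WT replicates 1, 4 and 5 stood above all KO tumors, replicate 3 lay inside the KO range and replicate 2 was the lowest tumor of all. The means were 30.3 ± 4.32 CPM (SD, n = 6) in KO and 45.8 ± 18.7 CPM (SD, n = 5) in WT. The log2 fold change of -0.59 (SE 0.25, 95% interval -1.13 to -0.053) did not pass the adjustment (edgeR adjusted p = 0.226). Without WT replicate 2 it was -0.78 and passed (adjusted p = 0.0307), the only one of 20 alternatives in which it did, with adjusted p up to 0.381 in the others.

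*Lgals9* (ENSMUSG00000001123.15) encodes galectin-9, a sugar-binding protein that engages TIM-3, and lies on the minus strand of chromosome 11 from 78962974 to 78984946. Its level ranged from 9.60 to 20.5 CPM in KO tumors with a median of 17.3, and was 31.6, 33.5, 35.6, 28.5 and 15.4 CPM in WT replicates 1 to 5. WT replicates 1 to 4 lay clear of every KO tumor, while WT replicate 5 lay within the KO range. The means were 16.2 ± 3.90 CPM (SD, n = 6) in KO and 28.9 ± 8.00 CPM (SD, n = 5) in WT tumors. The fitted level was 1.79-fold lower in KO, a log2 fold change of -0.84 (SE 0.22, 95% interval -1.32 to -0.35) that missed the threshold (edgeR adjusted p = 0.0736). It passed with DESeq2 (adjusted p = 0.0150), with limma-voom with sample quality weights (0.0223) and, in edgeR, without WT replicate 5 (log2 fold change -0.98, adjusted p = 0.0235). Those were 3 of 20 alternatives, over which the adjusted p reached 0.168.

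In the fit without WT replicate 5, singled out after its values were seen, 2 of 8 ligands were called lower at an adjusted p under 0.05 by edgeR, against 1.65% of the 19513 genes then tested.

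*Pvr* (ENSMUSG00000040511.14, minus strand of chromosome 7, 19903578 to 19921160) encodes CD155, which binds the inhibitory receptors TIGIT and CD96 and the activating receptor CD226. Its level ranged from 9.59 to 22.3 CPM in KO tumors with a median of 17.9, and was 21.8, 28.6, 18.9, 22.6 and 27.4 CPM in WT replicates 1 to 5. KO replicate 6 was the lowest tumor, and KO replicates 4 and 5 reached into the WT range. The log2 fold change was -0.43 (SE 0.19, 95% interval -0.85 to -0.012, edgeR adjusted p = 0.254). A processed pseudogene, AC149085.5, lies on the opposite strand inside the gene at a mean of 1.09 CPM.

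*Igsf11* (ENSMUSG00000022790.14, plus strand of chromosome 16, 38892671 to 39027159) encodes an adhesion protein that is also a ligand of VISTA, an inhibitory receptor of T cells and myeloid cells. It was the scarcest of the 8, with between 4 and 21 counts per tumor. Its level ranged from 0.439 to 1.47 CPM in KO tumors with a median of 0.889, and was 0.548, 0.379, 1.40, 1.73 and 1.88 CPM in WT replicates 1 to 5. The WT tumors lay at both ends, with replicates 4 and 5 above every KO tumor and replicate 2 below every KO tumor. Its log2 fold change was -0.42 with a wide 95% interval, from -1.40 to 0.56 (edgeR adjusted p = 0.658).

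**Figure D2:**
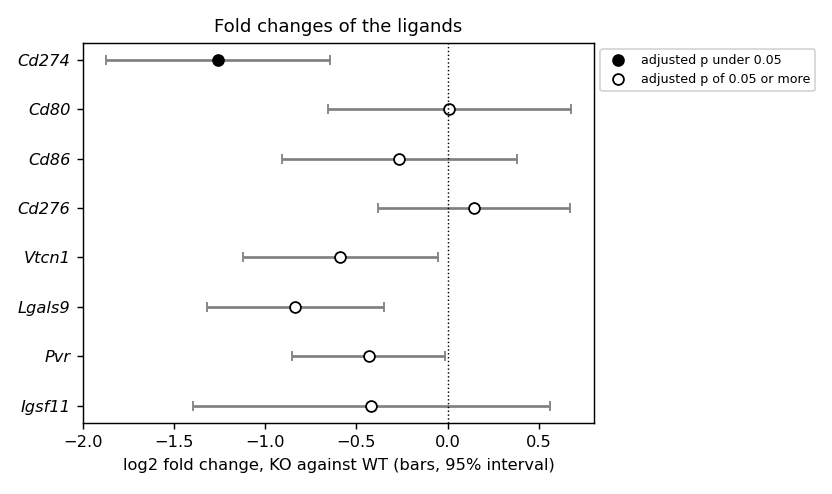
Log2 fold change of each ligand, KO against WT, from edgeR with its 95% interval, filled where the adjusted p was under 0.05. *Cd274* is the only filled point, and the intervals of *Cd80*, *Cd86*, *Cd276* and *Igsf11* span 0.

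To compare levels between genes, CPM was divided by exon length in kb. On this scale of CPM per kb the WT tumors held most *Vtcn1* (16.8 ± 6.86, SD, n = 5) and *Lgals9* (12.7 ± 3.53), then *Cd276* (6.24 ± 2.06) and *Pvr* (3.83 ± 0.650). *Cd274* (1.46 ± 0.684) and *Cd86* (1.17 ± 0.465) came next in WT tumors by CPM per kb, and *Cd80* (0.386 ± 0.152) and *Igsf11* (0.253 ± 0.146) were last. Each of these 4 pairs overlapped within 1 SD, and the pairs did not overlap with each other. In KO tumors *Vtcn1* (11.1 ± 1.58 CPM per kb, SD, n = 6) stood above *Lgals9* (7.12 ± 1.72) and *Cd276* (6.84 ± 2.21), which overlapped each other. *Pvr* followed at 2.85 ± 0.736 CPM per kb in KO tumors, and *Cd86* at 0.980 ± 0.314 overlapped *Cd274* at 0.614 ± 0.0915. *Cd80* at 0.393 ± 0.101 and *Igsf11* at 0.191 ± 0.0873 were again the lowest by CPM per kb. *Cd274* thus ranked above *Cd86* in WT and below it in KO tumors, in both cases within 1 SD.

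The receptors of these ligands were measured from a list of 8 genes, all present in the table, of which 3 passed edgeR's filter on low counts. None of the 3 was called in either direction by edgeR, DESeq2 or limma-voom, where edgeR called 1.66% of all genes lower and 0.608% higher. At an unadjusted p under 0.05, 0 of the 3 passed, against 10.5% of all genes lower and 8.19% higher. The most abundant receptor was *Vsir*, which encodes VISTA, at a mean of 52.8 CPM and a log2 fold change of -0.11 (edgeR adjusted p = 0.803). *Pdcd1*, which encodes PD-1, held between 3 and 21 counts per tumor and had a log2 fold change of -0.66 (95% interval -1.54 to 0.23, edgeR adjusted p = 0.416). *Havcr2*, which encodes TIM-3, had a log2 fold change of 0.073 (edgeR adjusted p = 0.863). The other 5 receptors, *Cd28*, *Ctla4*, *Tigit*, *Cd226* and *Cd96*, held between 0 and 17 counts in a tumor and were not tested.

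Of 12 further checkpoint and costimulatory receptors, 10 were in the table and 6 were tested, 3 with a negative and 3 with a positive log2 fold change (median 0.055). None was called by edgeR or limma-voom, nor by DESeq2, which gave no p for *Cd27*, and 1 was lower at an unadjusted p under 0.05. Over all genes tested, 1.66% were lower and 0.608% higher by edgeR, and 10.5% were lower at an unadjusted p under 0.05. *Cd27*, a costimulatory receptor of lymphocytes, had the highest mean CPM of that list and stood far up in KO replicate 2 (66.0 CPM) and WT replicate 2 (155 CPM), with at most 17.6 CPM in every other tumor. Its log2 fold change of -0.98 (edgeR adjusted p = 0.556) became 0.75 without WT replicate 2 (adjusted p = 0.504), with adjusted p from 0.225 to 0.948 over the alternatives that gave one.

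Among 24 other checkpoint and costimulatory ligands, 21 were in the table and 19 were tested, with a median log2 fold change of -0.096. Only *Ulbp1* was called by edgeR, and it was higher in KO tumors, as were 0.608% of all genes. It encodes a stress-induced ligand of NKG2D, an activating receptor of NK cells and T cells. Its level ranged from 5.47 to 11.5 CPM in KO tumors with a median of 7.05, and was 2.83, 1.71, 3.15, 3.55 and 1.34 CPM in WT replicates 1 to 5. Every KO tumor lay above every WT tumor. The gene rose 3.07-fold, a log2 fold change of 1.62 (SE 0.27, edgeR adjusted p = 0.00886), and the call was made in 19 of 20 alternatives, with adjusted p from 1.05e-06 to 0.0581. At an unadjusted p under 0.05, 3 of the 19 were lower and 2 higher, against 10.5% and 8.19% of all genes, and none was called lower by edgeR or DESeq2 against 1 by limma-voom. *Ceacam1*, a ligand of TIM-3 and the most abundant of that list at a mean of 130 CPM, had a log2 fold change of -0.38 (edgeR adjusted p = 0.249).

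A list of 20 genes with a known part in *Cd274* expression covered, among others, the interferon receptors, JAK kinases, IRF factors, NF-kB subunits, *Myc*, *Hif1a* and the PD-L1 partners *Cmtm4* and *Cmtm6*. All 20 were tested, with 12 negative and 8 positive log2 fold changes and a median of -0.025. Of these, 2 were called lower and 0 higher by edgeR, 6 were lower and 0 higher at an unadjusted p under 0.05, and DESeq2 and limma-voom called 5 and 4 lower and none higher. Over all genes tested, 1.66% were lower by edgeR at an adjusted p and 10.5% at an unadjusted p under 0.05, and DESeq2 and limma-voom called 730 and 1190 genes lower. The genes called by edgeR were *Stat2* and *Irf9*, which encode transcription factors of the type I interferon response. *Stat2* ranged from 16.3 to 27.0 CPM in KO tumors with a median of 19.5, and was 51.8, 57.0, 83.8, 55.3 and 25.4 CPM in WT replicates 1 to 5. As with *Cd274* and *Lgals9*, WT replicates 1 to 4 lay above all KO tumors and WT replicate 5 lay within their range. *Stat2* fell 2.67-fold in KO tumors, with a log2 fold change of -1.42 (SE 0.24, edgeR adjusted p = 0.0112). Without WT replicate 5 it was -1.59 (edgeR adjusted p = 0.00131), and the adjusted p lay between 6.95e-06 and 0.0564 over 20 alternatives.

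*Irf9* ranged from 30.0 to 46.4 CPM in KO tumors with a median of 37.2, and was 74.7, 73.6, 78.3, 74.3 and 39.5 CPM in WT replicates 1 to 5. WT replicate 5 lay within the KO range and the other WT tumors above it. The log2 fold change was -0.85 (SE 0.17, edgeR adjusted p = 0.0254), and -0.98 without WT replicate 5 (adjusted p = 0.00269). The call was lost without any 1 of KO replicates 3, 4 and 5 and of WT replicates 1, 3 and 4 (adjusted p from 0.0576 to 0.0689), and the adjusted p ran from 0.000453 to 0.0689 over 20 alternatives. *Stat3* was the most abundant gene of the list, at a mean of 309 CPM, with a log2 fold change of 0.16 (edgeR adjusted p = 0.608).

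The cells that could carry these ligands were followed through marker lists, each summed over its genes per tumor and compared by a two-sided exact permutation test over all assignments of tumors to genotypes, with adjustment over 11 lists. The 10 macrophage markers summed to between 319 and 612 CPM in KO tumors, and to 375, 225, 443, 317 and 200 CPM in WT replicates 1 to 5. The groups overlapped, and the mean ratio of KO to WT was 1.43 (exact permutation p = 0.0649, adjusted p = 0.714). Much of the difference lay in the most abundant gene, *Lyz2*, at 193 ± 36.9 CPM (SD, n = 6) in KO and 94.4 ± 41.3 CPM (SD, n = 5) in WT tumors. Its log2 fold change of 1.02 did not pass in edgeR (adjusted p = 0.0657), whereas DESeq2 and limma-voom called it higher. Without *Lyz2* the macrophage sums had a ratio of 1.16 (exact permutation p = 0.398, adjusted p = 0.915). The 10 T cell markers summed to only 5.72 to 11.3 CPM in KO tumors and to 11.8, 7.59, 9.90, 12.6 and 5.34 CPM in WT replicates 1 to 5. *Cd8a* led that list, and the ratio was 0.918 (exact permutation p = 0.615, adjusted p = 0.881). WT replicate 5 was the lowest WT tumor for both lists. Without it the log2 ratio was 0.39 for macrophages (exact permutation p = 0.143) and -0.27 for T cells (exact permutation p = 0.219).

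The other 9 lists gave ratios of KO to WT of 1.24 for dendritic cells (10 genes, led by *Fscn1*, without which it was 0.927), 0.782 for B cells (2 of 5 listed genes, *Pax5* and *Cd79b*, both scarce), 0.973 for all leukocytes (5 genes, led by *Ptprc*) and 1.00 for luminal cells. The ratios were 0.848 for basal and myoepithelial cells (7 genes, led by *Oxtr*), 1.21 for fibroblasts (7 genes, led by *Col1a1*) and 0.853 for endothelial cells (5 genes, led by *Cdh5*). For adipocytes the ratio was 0.637 (5 genes, led by *Plin1*), and for glia and melanocytes 1.19 (6 of 7 listed genes, led by *Sox10*, which mammary epithelium also expresses). Without their most abundant genes the ratio was 1.13 for B cells, 1.01 for all leukocytes and 0.916 for glia and melanocytes. With 1 tumor left out, log2 ratios ran from -0.49 to 0.28 for the basal list and from -1.11 to 0.60 for the adipocyte list. Adjusted p over the 11 lists was 0.714 or above. *Fscn1* alone held 39.8 of the 62.9 CPM of the dendritic list in KO and 25.8 of 50.6 CPM in WT tumors, and 4 of the 7 dendritic genes tested had a negative log2 fold change (median -0.21), among them *Clec9a* at -1.36 (edgeR adjusted p = 0.105). The other 3 had a positive one, the highest being that of *Cd209a* at 0.87 (edgeR adjusted p = 0.539). Leaving out the most abundant gene of each list was added after the data were seen. Of the 61 marker genes tested singly, none was called by edgeR, 2 were lower and 1 higher at an unadjusted p under 0.05 (10.5% and 8.19% over all genes), DESeq2 called 0 lower and 1 higher, and limma-voom 2 lower and 1 higher.

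How the ligands vary between tumors of one genotype was examined on log2 CPM, as deviations from the genotype means over all 11 tumors. Of 68 relations computed, among the 8 ligands and between them and 5 marker lists, 3 passed an adjusted p under 0.05 by Pearson's r and 0 by Spearman's rho. *Cd86* followed the macrophage sum, with r = 0.931 (permutation p = 0.00048, adjusted p = 0.0134) and rho = 0.900 (permutation p = 0.00095, adjusted p = 0.0646), and r was 0.958 without KO replicate 5 and WT replicate 3. *Vtcn1* followed the luminal sum, with r = 0.759 (permutation p = 0.00054, adjusted p = 0.0134) and rho = 0.809 (permutation p = 0.0046, adjusted p = 0.150), and r was 0.622 without KO replicate 1 and WT replicate 2. *Vtcn1* ran opposite to the sum of the dendritic list, which *Fscn1* dominates, with r = -0.705 (permutation p = 0.00059, adjusted p = 0.0134) and rho = -0.700 (permutation p = 0.0088, adjusted p = 0.150), and r was -0.533 without the same 2 tumors. With *Fscn1* left out of that sum r was -0.0355, so that the relation rested on *Fscn1*. *Cd274* and *Lgals9* had r = 0.629 (permutation p = 0.0690, adjusted p = 0.361) and rho = 0.473 (permutation p = 0.179, adjusted p = 0.798), and r was 0.154 without WT replicates 3 and 5, so that the relation rested on those tumors. Neither gene passed with any of the 5 marker sums. *Cd274* and the macrophage sum had r = 0.618 (permutation p = 0.0868, adjusted p = 0.422), and r was 0.038 without WT replicates 3 and 5. With the T cell sum, *Cd274* had r = 0.561 (permutation p = 0.138, adjusted p = 0.553) and rho = 0.645 (permutation p = 0.0545, adjusted p = 0.530). That r was 0.568 without WT replicates 3 and 5. *Lgals9* had r = 0.666 with the T cell sum (permutation p = 0.0394, adjusted p = 0.320) and r = 0.698 with the basal sum (permutation p = 0.0336, adjusted p = 0.320). Without KO replicate 2 and WT replicate 5 these were -0.123 and -0.337.

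**Figure D3:**
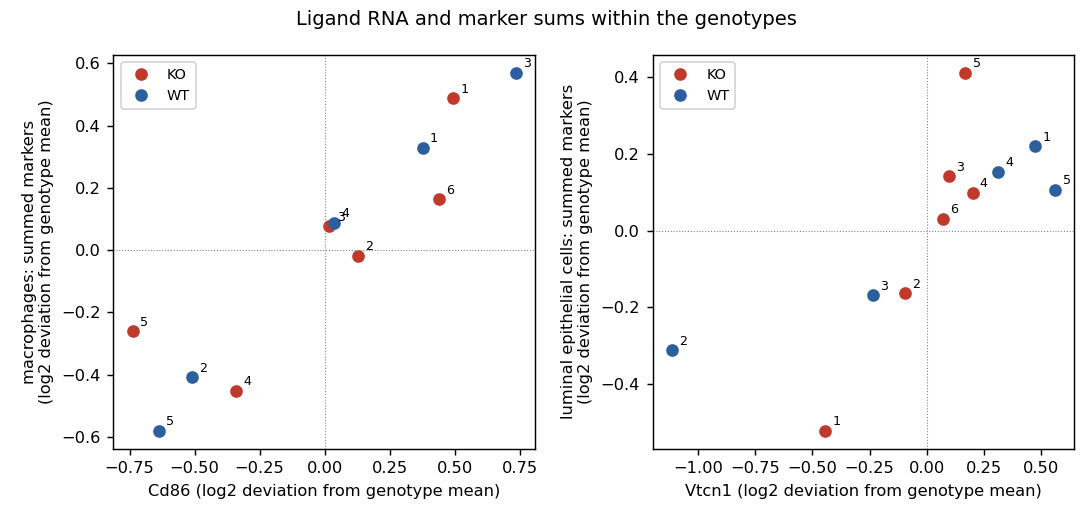
Log2 deviations from the genotype mean in each tumor, KO in red and WT in blue with replicate numbers, for *Cd86* against the summed macrophage markers (left) and *Vtcn1* against the summed luminal markers (right). Ligands are on the x axis and sums on the y axis, and r is 0.931 on the left and 0.759 on the right, where WT replicate 2 and KO replicate 1 lie far from the others.

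The genes whose deviations were most like those of *Cd274* over the 11 tumors, among 18684 genes, were *Psmb9* (Pearson's r = 0.969), *H2-Q4* (0.961), *H2-Q6* (0.960), *Tap1* (0.955) and *H2-Q7* (0.953). *H2-Q6* and *H2-Q7* are near-identical copies whose reads may have been divided between them. Ranked by Spearman's rho, 2 of these 5 were still among the first 5, and 4 were without WT replicate 5, where the 5 had r from 0.922 to 0.981. WT replicate 3 had the largest deviation of *Cd274* (1.02 on the log2 scale), and likeness without it was not examined. For *Lgals9* the closest were *Apol9a* (r = 0.939), *Parp12* (0.938), RP23-434L22.2 (0.928), *Ifit1* (0.908) and *Isg15* (0.903), of which 0 were among the first 5 by Spearman's rho or without WT replicate 5, where their r ran from 0.822 to 0.908. For *Igsf11*, whose few counts make any likeness weak, they were *Myo9a* (r = 0.918), *Sec14l4* (0.908), *Etfb* (0.902), *Zfp120* (0.897) and *Ccdc28a* (0.889), with 1 of 5 shared by Spearman's rho and 1 of 5 without WT replicate 5. These correlations are a description of the 11 tumors, chosen as the highest among all genes compared.

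Within 250 kb of *Cd274*, 8 other genes were tested, 4 with a negative and 4 with a positive log2 fold change. Of these, 0 were called by edgeR, against 1.66% lower and 0.608% higher over all genes. *Plgrkt*, whose span lies 0.065 kb from that of *Cd274*, had a log2 fold change of -0.40 (edgeR adjusted p = 0.196), and *Jak2*, at 54.4 kb, one of -0.028 (adjusted p = 0.948). The lowest p belonged to the processed pseudogene *Gm5518* (log2 fold change 0.35, edgeR adjusted p = 0.101). Near *Lgals9*, 3 genes were tested and 1 was called lower, where 1.66% of all genes were. It was *Ksr1*, which encodes a scaffold of RAF and MEK kinases and lies 28.5 kb away. *Ksr1* fell in KO tumors with a log2 fold change of -0.65 (SE 0.14, edgeR adjusted p = 0.0349). That call was lost without any 1 of KO replicates 1, 3, 5 and 6 and of WT replicates 1, 4 and 5, with adjusted p from 0.0653 to 0.0771, and was made in 9 of 20 alternatives, over which the adjusted p ran from 0.00197 to 0.131. Near *Igsf11*, 4 genes were tested, all with positive log2 fold changes and none called, and the lowest p was that of *Arhgap31* (log2 fold change 0.71, edgeR adjusted p = 0.197).

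Promoter windows, from 250 bases before to 50 bases after the start of a RefSeq transcript, were available from RefSeq (GRCm38.p6) for 7 of the 9 ligands, *Pdcd1lg2* included. They are shown for the pair of ligands with the lowest p, *Cd274* (chr19:29367188-29367487, plus strand) and *Lgals9* (chr11:78984875-78985174, minus strand). Each window was searched on both strands for GAAANNGAAA, the core of the interferon-stimulated response element, whose reverse complement is TTTCNNTTTC. Of 32817 windows in all, 3.43% held it. The *Lgals9* window held 2 matches, in capitals, TTTCTTTTTC beginning 55 bases before the start and TTTCTGTTTC beginning at base 16 of the transcript. The *Cd274* window and the other 5 held none. The core of the gamma-activated site, TTCNNNGAA, and an NF-kB motif, GGGNNTTTCC, which 8.29% and 1.63% of all windows held, had no match in any of the 7. A match describes letters and does not show binding.
Cd274: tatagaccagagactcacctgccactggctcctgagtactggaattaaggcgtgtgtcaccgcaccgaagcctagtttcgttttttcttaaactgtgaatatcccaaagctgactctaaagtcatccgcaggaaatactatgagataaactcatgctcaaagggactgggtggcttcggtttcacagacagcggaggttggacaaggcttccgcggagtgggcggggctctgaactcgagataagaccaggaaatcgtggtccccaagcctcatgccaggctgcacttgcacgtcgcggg
Lgals9: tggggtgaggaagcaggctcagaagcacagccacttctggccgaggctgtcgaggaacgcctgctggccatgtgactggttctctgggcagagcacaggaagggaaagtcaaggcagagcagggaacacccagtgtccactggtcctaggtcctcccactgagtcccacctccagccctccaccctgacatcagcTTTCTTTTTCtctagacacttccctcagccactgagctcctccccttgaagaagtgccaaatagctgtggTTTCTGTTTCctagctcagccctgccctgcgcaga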

How the data were processed

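Tumor RNA was extracted with Trizol, and poly(A)-enriched stranded libraries were sequenced by the authors, whose processing notes name FastQC, Bowtie2, Partek and GRCm38. The counting method and the annotation are not given in the sources used here. The authors deposited an estimated count per gene and tumor, of which between 17.9% and 19.6% per tumor are not whole (tolerance 1e-06), and the same counts as CPM, each divided by the total of its tumor. Samples were grouped by the genotype in the labels.

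Rounded counts went into edgeR 4.0.16 (R 4.3.3), where libraries were scaled by TMM, scarce genes were removed by the default rule of that tool (19232 genes stayed) and the quasi-likelihood test was run with genotype as the only term. The SE is the log2 fold change divided by the square root of F. Ends were taken 1 base before the deposited stop. The members and gene lists were chosen with earlier results of these data known. The genes named were every ligand, listed genes with an adjusted p under 0.05, the most abundant gene of each list, the neighbors within 250 kb with the lowest p, and the 5 genes most like *Cd274*, *Lgals9* and *Igsf11* among genes with at least 1 CPM on average. *Pdcd1*, *Havcr2*, *Plgrkt*, *Jak2*, *Clec9a*, *Cd209a*, *Cd79b* and the receptors too scarce to test were named after their values were seen. Likeness used log2 CPM with TMM factors and a prior count of 2, and relations were tested with 100000 permutations of tumors within the genotypes. Older symbols were matched through RefSeq (*Cd244*, *Pvrl2* and *Pvrl4*). Exon lengths came from the GENCODE annotation of GRCm39 by Ensembl identifier, without its coordinates. Alternatives were library size only, upper-quartile factors, DESeq2 1.42.0, limma-voom with sample quality weights and limma on log2(CPM + 1) and log2(CPM + 0.1) (limma 3.58.1), no filter, at least 1 CPM in 5 tumors, the replicate number as a block, and each tumor left out. Marker sums less their most abundant gene, and likeness without WT replicate 5, were added after the data were seen. Permutation tests used SciPy 1.17.1.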

Additional observations from a re-analysis of the deposited data

Results flagged for a closer look

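Among 56 groups of values examined, 7 held a tumor far from the rest of its genotype, where about 1 in 20 groups, 2.8 here, would by chance. The groups share the same tumors, and these counts were not compared by a test. *Irf9* was low in WT replicate 5, at 39.5 CPM against 73.6 CPM in the next lowest WT tumor. *Cd27* was high in KO replicate 2, at 66.0 CPM against 17.6 CPM in the next KO tumor, and in WT replicate 2, at 155 CPM against 14.3 CPM. The dendritic cell markers summed to 112 CPM in KO replicate 1, the next KO tumor being at 59.0 CPM. The B cell markers reached 2.09 CPM in KO replicate 6, where the next KO tumor had 1.03 CPM. Basal and myoepithelial markers were low in KO replicate 2, at 123 CPM against 301 CPM in the next lowest. Adipocyte markers stood at 38.7 CPM in WT replicate 3, with 8.20 CPM in the next WT tumor. No ligand was among these results.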

How the results depend on the processing

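Each gene was refitted under 20 alternatives. *Lgals9*, *Vtcn1*, *Pvr*, *Cd86* and *Igsf11* kept a negative and *Cd276* a positive log2 fold change in all 20. Genes lower and higher in KO at an adjusted p under 0.05 numbered 319 and 117, against 730 and 486 with DESeq2, and 1190 and 968 with limma-voom with sample quality weights. Both tools called 2 ligands lower (1 in edgeR). Regulators of *Cd274* called lower went from 2 to 5 with DESeq2 and to 4 with limma-voom. Marker genes called higher went from 0 to 1 with DESeq2, limma-voom and both limma fits on log2 CPM, and limma-voom called 2 marker genes and 1 of the other ligands lower. *Cd80* turned to -0.070 with limma-voom. Limma on log2(CPM + 1) and on log2(CPM + 0.1) called 0 ligands, also by the study's criteria (1 in edgeR), and gave *Cd274* an adjusted p of 0.0591 and 0.0549. The causes were not tested.

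With the replicate block, fitted to 10 tumors because KO replicate 6 has no partner, 118 genes were called lower and 42 higher, 0 ligands were called by either criterion, *Ulbp1* was not called (0 other ligands higher), 1 regulator was called lower, and *Cd80* was -0.046. The calls of *Cd274*, *Stat2*, *Ulbp1* and *Ksr1* were lost in that fit. Same-numbered tumors had correlations of their deviations from -0.144 to 0.293. Each of 10 tumors was compared with 5 of the other genotype, so about 1 in 5 would match its own number by chance. Of the 10, 5 correlated best with their own number, which is above that share. The correlations had both signs, and these values do not settle whether the number pairs the tumors.

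With 1 tumor left out, genes lower ran from 144 to 389, genes higher from 41 to 187, ligands called lower from 0 to 2, ligands meeting the study's criteria from 0 to 1, other ligands lower from 0 to 1, regulators lower from 1 to 3 and marker genes higher from 0 to 1. Fewer tumors were fitted in each. Log2 fold changes that turned sign ran from -0.19 to 0.24 (*Cd80*), -1.79 to 0.75 (*Cd27*) and -0.28 to 0.018 (*Vsir*). Log2 ratios of marker sums did so for T cells (-0.27 to 0.0027), leukocytes (-0.18 to 0.12), luminal (-0.088 to 0.091), basal (-0.49 to 0.28) and adipocyte (-1.11 to 0.60) lists. Without the most abundant gene of each list, a choice made after seeing the data, log2 ratios turned sign for dendritic cells (-0.11), B cells (0.18), leukocytes (0.016) and glia and melanocytes (-0.13). Of the 5 genes most like *Cd274*, *Lgals9* and *Igsf11*, 2, 0 and 1 were shared under Spearman's rho and 4, 0 and 1 without WT replicate 5. Depth limits *Igsf11* and *Cd80*, at 4 to 28 counts per tumor.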
